A study of Mus musculus with 2 samples.

Results

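The Gimap family of the mouse comprised 8 genes, Gimap1, Gimap3, Gimap4, Gimap5, Gimap6, Gimap7, Gimap8 and Gimap9, taken by symbol from the 31053 genes measured. They were all the genes whose symbol starts with Gimap. Their transcripts were described in 2 single-cell RNA libraries of γδ T cells labelled as positive for CD24, a surface protein of immature thymocytes. Both libraries came from wild-type C57BL/6 embryos, whose thymic lobes were removed at embryonic day 15 and cultured for 2 days with no treatment. Cells were stained with TMRE, a dye that collects in mitochondria according to their membrane potential. Cells that stained brightly gave the TMREhi library and cells that stained dimly the TMRElo library. The number of embryos is not given in the sources used here, and each fraction is 1 library.

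GIMAP proteins, the GTPases of immunity-associated proteins, are a vertebrate family of GTP-binding proteins found mainly in lymphocytes. Many are anchored in intracellular membranes, and several are known from mice and rats to govern whether T cells survive after they leave the early thymocyte stages. Loss of Gimap5 causes a shortage of T cells in mice and rats, and loss of Gimap1 from lymphocytes removes most mature T and B cells in mice. In αβ thymocytes several of the genes are generally switched on as cells mature.

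Unique molecular identifiers (UMIs), each counting 1 captured transcript, were summed over the barcodes of a set and divided by all UMIs of that set, giving counts per 1000000 counts (CPM). Retained barcodes had at least 500 genes and at most 10% mitochondrial UMIs. They numbered 317 in TMREhi, with 2905666 UMIs and a median of 7465, and 34 in TMRElo, with 105080 UMIs and a median of 1679. The 5 deepest barcodes held 4.70% of these UMIs in TMREhi and 44.0% in TMRElo, and 3 UMIs equalled 1.03 CPM in TMREhi and 28.5 in TMRElo. Classes of barcodes were compared over all barcodes with at least 500 genes, 1025 in TMREhi and 133 in TMRElo, because the mitochondrial limit removes most of those poor in ribosomal protein transcripts. The 2 libraries shared 0 barcodes. All 7 γδ T cell markers (Trdc, Tcrg-C1, Tcrg-C2, Tcrg-C4, Cd3e, Cd3d and Cd3g) had UMIs in both libraries. Their summed levels were 3651 CPM in TMREhi and 4768 in TMRElo, and Cd3e, Cd3d and Cd3g are not specific to γδ T cells. Cd24a, which encodes CD24, had 438 UMIs in TMREhi and 0 in TMRElo, although TMRElo is also labelled as positive for CD24. Low-ribosomal barcodes, defined below, had 91 in TMREhi and 3 in TMRElo. The label names a surface protein and these counts are transcripts, so they do not show whether the TMRElo cells carried CD24. The 4 erythroid markers were at 0 in both, as were the B cell markers Cd79a, Ms4a1 and Pax5 and the endothelial markers Cdh5, Kdr and Tie1. The B cell marker Cd79b had 71 UMIs in TMREhi and 2 in TMRElo, and the 5 endothelial markers summed to 55.1 CPM in TMREhi and 47.6 in TMRElo. Of 5 myeloid markers, all had UMIs in TMREhi and 1 in TMRElo, where Lyz2, Csf1r, Itgam and C1qa were at 0. These myeloid markers summed to 250.9 CPM in TMREhi (729 UMIs) and 199.8 in TMRElo (21 UMIs, all of Fcer1g). Of the 729 in TMREhi, 424 were of Fcer1g, 177 of Lyz2 and 107 of C1qa. The 5 markers of innate lymphoid cells summed to 144 CPM in TMREhi and 200 in TMRElo. Gata3 made up 365 of their 418 UMIs in TMREhi and 10 of 21 in TMRElo. With 1 library per fraction there is no replicate and no test between groups. Every interval below is a 95% interval on counting error only and leaves out variation between embryos, sorts and cells. The kit reads the 5′ ends of transcripts, so levels were not divided by gene length and are not ranked between genes.

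The 8 genes lie side by side on chromosome 6, within 123.618 kb of the GRCm38 (mm10) assembly, between bases 48647234 and 48770851 in the GENCODE vM21 annotation. In chromosomal order, Gimap8 is at chr6:48647234-48660875, Gimap9 at chr6:48676129-48679114 and Gimap4 at chr6:48684549-48692060, all on the plus strand. Gimap6 follows at chr6:48701582-48708225 on the minus strand, then Gimap7 at chr6:48718621-48724636, Gimap1 at chr6:48739054-48743795 and Gimap5 at chr6:48746197-48754210 on the plus strand. Gimap3 closes the cluster at chr6:48764464-48770851 on the minus strand. Gimap3 and Gimap5 are close relatives, and 190 of the stretches of 50 bases in their transcripts are common to both, which is part of the 206 of 2528 in Gimap3 and the 287 of 4195 in Gimap5 that also occur in another gene. Reads from those stretches cannot be assigned, and how they were counted is not given in the sources used here. Gimap8, Gimap9 and Gimap4 shared 0 such stretches with another gene. A read-through gene, Gm28053, runs from Gimap7 across Gimap1 into Gimap5 on the same strand and shares 81 exon bases with Gimap7, 198 with Gimap1 and 153 with Gimap5. It had 25 UMIs in all deposited TMREhi barcodes and is not counted among the 8.

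Promoter windows, from 250 bases before to 50 bases after each RefSeq start on GRCm38.p6, covered all 8 genes in 9 windows. They were searched on both strands for TGTTTAC, a core site of FOXO factors (GTAAACA on the other strand), GGGTGTGG (KLF), CCGGAAGT (ETS) and TGTGGTT (RUNX). The KLF and RUNX letters overlap in TGTGG. The FOXO letters occurred in 1 of the 9 windows, that of Gimap3, and in 3.65% of 32851 windows in the genome. The other letters occurred in 0 of the 9 windows, against 3.56%, 3.89% and 5.27% of all windows in the order given. The windows of Gimap3, the member with the widest gap between the libraries, and of Gimap9, the member that stood apart from the rest, are shown 5′ to 3′. Capitals mark the FOXO letters, which start 247 bases before the Gimap3 start, and a match of letters is not a site shown to be bound.
Gimap3, chr6:48770802-48771101, minus strand: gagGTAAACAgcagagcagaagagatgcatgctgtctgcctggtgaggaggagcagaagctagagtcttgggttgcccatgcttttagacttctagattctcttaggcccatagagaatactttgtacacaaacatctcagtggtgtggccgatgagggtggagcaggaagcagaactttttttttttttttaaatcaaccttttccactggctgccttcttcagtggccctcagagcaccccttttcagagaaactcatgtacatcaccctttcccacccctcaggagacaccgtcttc
Gimap9, chr6:48675885-48676184, plus strand: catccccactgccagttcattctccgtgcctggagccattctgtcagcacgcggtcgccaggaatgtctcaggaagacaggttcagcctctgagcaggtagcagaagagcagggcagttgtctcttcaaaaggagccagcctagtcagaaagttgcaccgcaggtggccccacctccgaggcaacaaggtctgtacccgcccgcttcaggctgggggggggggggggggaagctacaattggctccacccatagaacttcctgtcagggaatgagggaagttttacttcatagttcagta

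The first comparison asked how the family differed between cells of high and low mitochondrial membrane potential. Summed over the 8 genes, Gimap transcripts stood at 724 CPM in TMREhi (2103 UMIs) and 1703 in TMRElo (179 UMIs). The ratio of TMREhi over TMRElo was 0.425 (0.365 to 0.498), that is 2.35-fold higher in TMRElo. Of the 8 members, 7 were at least 2-fold lower in TMREhi, against 30.5% of the 7802 genes whose average over the 2 libraries reached 10 CPM, and 0 were at least 2-fold higher, against 10.6%. In all such counts a gene with 0 UMIs on 1 side counts as past the fold. The members had a median log2 ratio of −1.30, against −0.36 over all these genes. Gimap9 was the exception. The retained sets also differed in make-up, with a median of 31.3% ribosomal protein UMIs in TMREhi and 11.6% in TMRElo. Ratios within classes of ribosomal share are given below.

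Gimap3, identified in mice as a gene that affects the inheritance of mitochondrial DNA variants in blood cells, showed the widest gap. It had 47.5 CPM in TMREhi (138 UMIs) and 247 in TMRElo (26 UMIs), a ratio of 0.192 (0.126 to 0.304). The ranges of counting error, 39.9 to 56.1 in TMREhi and 162 to 363 in TMRElo, did not overlap. Gimap8, a member with several GTP-binding domains, had 34.4 CPM in TMREhi and 105 in TMRElo, at a ratio of 0.329 (0.176 to 0.680). Gimap1 stood at 79.8 CPM in TMREhi and 228 in TMRElo, with a ratio of 0.350 (0.229 to 0.557). The values of Gimap6, which is known to bind the autophagy protein Gabarapl2, were 123 CPM in TMREhi and 333 in TMRElo, a ratio of 0.370 (0.261 to 0.540). All 4 of these intervals lay below 1.

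Gimap4, which promotes the death of T cells in rodents, had 169 CPM in TMREhi and 381 in TMRElo, with a ratio of 0.445 (0.322 to 0.630). Gimap5, the member needed for T cell survival, had 103 in TMREhi and 219 in TMRElo, a ratio of 0.470 (0.307 to 0.753). Both intervals lay below 1. Gimap7 rested on 121 UMIs in TMREhi and 9 in TMRElo, and 1 TMRElo barcode held 44.4% of the 9. Its levels were 41.6 CPM in TMREhi and 85.6 in TMRElo, and the interval of its ratio of 0.486 reached 1 (0.248 to 1.09). Without the 5 deepest barcodes of each library it was no longer 2-fold lower, at 0.642 (0.245 to 2.40). Gimap9 had 125 CPM in TMREhi (363 UMIs) and 105 in TMRElo (11 UMIs). Its ratio of 1.19 had an interval of 0.659 to 2.41, which covers both directions at this depth. As a share of all Gimap UMIs, Gimap9 made up 17.3% in TMREhi (15.7 to 18.9) and 6.15% in TMRElo (3.11 to 10.7), while Gimap3 made up 6.56% in TMREhi (5.54 to 7.71) and 14.5% in TMRElo (9.71 to 20.6). The family was thus not scaled evenly between the libraries.

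**Figure D1:**
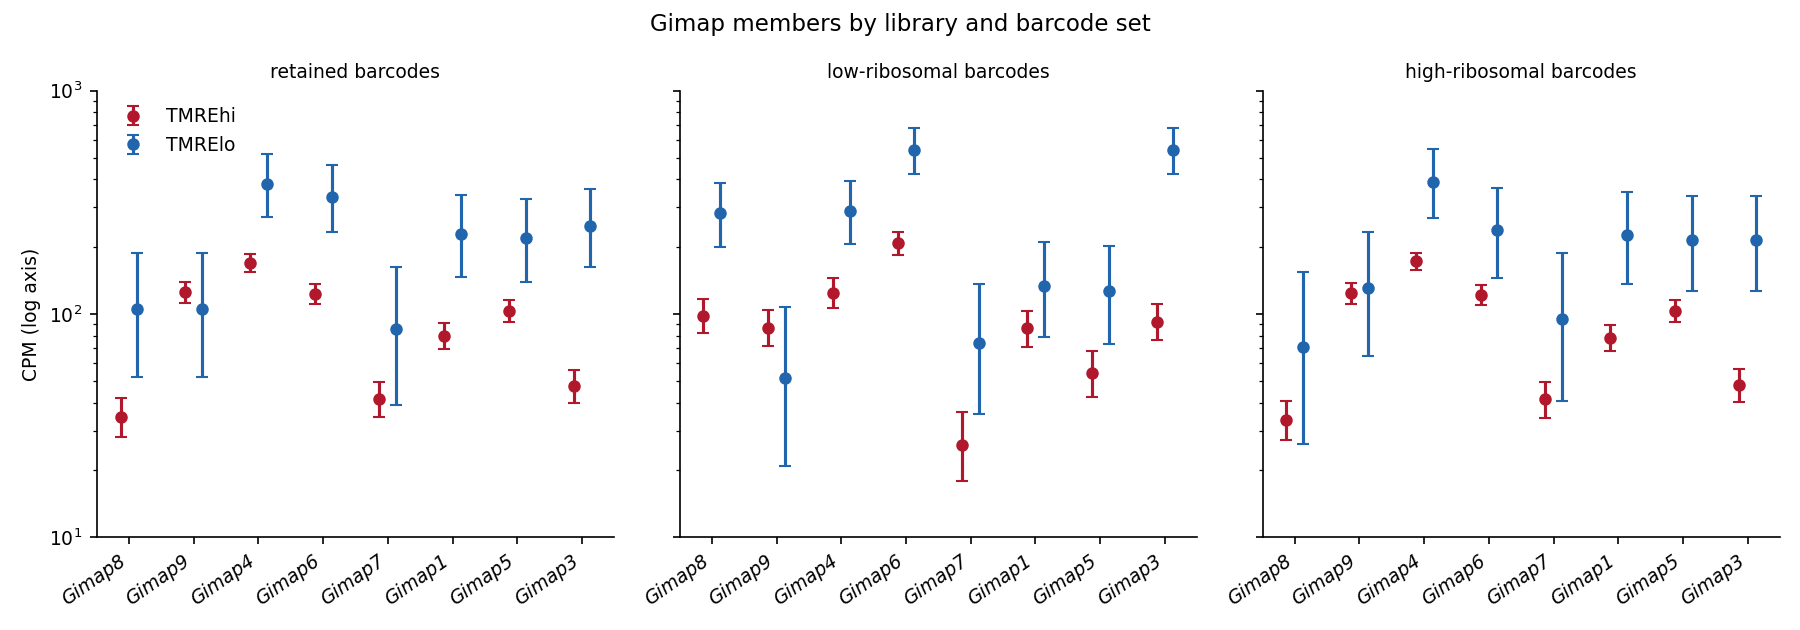
Level of each Gimap member in CPM (log axis), in TMREhi (red) and TMRElo (blue), for retained, low-ribosomal and high-ribosomal barcodes; points are sums over 1 library and bars are 95% Poisson intervals on the counts. Gimap3 lies lower in TMREhi in all 3 panels (47.5 against 247, 92.2 against 541 and 47.9 against 213), while the Gimap9 bars overlap in each.

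The gap was present in both classes of barcode that made up the libraries. Barcodes with under 15% of UMIs from ribosomal protein genes, called low-ribosomal here, numbered 733 of 1025 in TMREhi and 117 of 133 in TMRElo. In them the family stood at 775 CPM in TMREhi and 2037 in TMRElo, a ratio of 0.380 (0.333 to 0.436). There 6 members were at least 2-fold lower, against 14.2% of genes, and 0 higher, against 16.5%. Gimap3 had 92.2 CPM in TMREhi and 541 in TMRElo, a ratio of 0.170 (0.126 to 0.231). Gimap1 had 86.1 in TMREhi and 133 in TMRElo, and its interval reached 1 (0.391 to 1.13). Gimap9 had 86.9 in TMREhi and 51.9 in TMRElo, at a ratio of 1.67 (0.787 to 4.26). High-ribosomal barcodes, 292 in TMREhi and 16 in TMRElo, had 722 and 1576 Gimap CPM in the same order, at a ratio of 0.458 (0.384 to 0.550). There 6 members were at least 2-fold lower, against 20.6% of genes, and 0 higher, against 12.6%. Of the 6, Gimap8 (0.209 to 1.32) and Gimap7 (0.215 to 1.03) had intervals that included 1. The 5 deepest of the 16 TMRElo barcodes held 54.8% of the UMIs of that class, and 1 barcode held 21.1% of its Gimap UMIs. All 8 ratios lay below 1, that of Gimap9 at 0.947 (0.523 to 1.91).

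Barcodes that carry Rag1, described in the next comparison, were 222 in TMREhi and 1 in TMRElo, and in low-ribosomal barcodes 7 markers of αβ lineage thymocytes summed to 1166 CPM in TMREhi and 311 in TMRElo, where Rag2 and Ptcra were at 0. Without them, low-ribosomal barcodes gave 927 Gimap CPM in TMREhi and 2049 in TMRElo, a ratio of 0.452 (0.395 to 0.520), with 4 members at least 2-fold lower, against 13.8% of genes, and 0 higher, against 15.9%. Gimap3 was then at 0.221 (0.163 to 0.30). Among barcodes led by the same γ V segments the gap was also present. Barcodes led by the Vγ1 family and low in ribosomal transcripts had 787 CPM in TMREhi (191 barcodes) and 2066 in TMRElo (55 barcodes), with 6 members at least 2-fold lower and 1 higher, each against 20.3% of genes. The 1 higher was Gimap9, with 37 UMIs in TMREhi and 1 in TMRElo, and its interval included 1 (0.976 to 235). Of the 6 lower, Gimap7 rested on 5 TMRElo UMIs and its interval also included 1 (0.136 to 1.46). Those led by Tcrg-V4 had 739 in TMREhi (74 barcodes) and 2407 in TMRElo (21 barcodes), with 5 members at least 2-fold lower, against 26.9% of genes, and 1 higher, against 36%. The 1 counted as higher was Gimap7, with 4 UMIs in TMREhi (27.1 CPM) and 0 in TMRElo, where 3 UMIs equal 136 CPM, so it has no direction at this depth. Of the 5 lower, Gimap8 (6 TMRElo UMIs, 0.137 to 1.17) and Gimap5 (5 TMRElo UMIs, 0.0930 to 1.11) had intervals that included 1.

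In single barcodes the difference appeared as more barcodes with a Gimap UMI and more members per barcode. With every barcode thinned to 1000 UMIs, a UMI of any member was found in 48.9% of 282 retained TMREhi barcodes (43.0 to 54.9) and 85.2% of 27 TMRElo barcodes (66.3 to 95.8). UMIs of at least 2 members were found in 18.8% of TMREhi (14.4 to 23.9) and 51.9% of TMRElo barcodes (31.9 to 71.3). Unthinned, 89.0% of 317 TMREhi barcodes and 100% of 34 TMRElo barcodes had a Gimap UMI. Over all barcodes with at least 500 genes and 1000 UMIs, thinned Gimap3 was found in 8.08% of 866 TMREhi barcodes (6.36 to 10.1) and 39.3% of 84 TMRElo barcodes (28.8 to 50.5), and Gimap9 in 9.01% of TMREhi and 5.95% of TMRElo barcodes. Unthinned, Gimap3 had a UMI in 13.2% of 1025 TMREhi barcodes and 42.1% of 133 TMRElo barcodes. Barcodes under 1000 UMIs, 159 in TMREhi and 49 in TMRElo, could not be thinned. The share given by free RNA was not measured, since no set of barcodes that should lack Gimap transcripts was available. In 165 TMREhi barcodes with Rag1 and no γ V segment, Gimap3 had 0 UMIs, which allows up to 9.85 CPM, and a UMI of any member was found in 19.8% of the 91 that could be thinned.

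The TMRElo levels rest on few barcodes. The 5 barcodes with the most Gimap UMIs held 8.75% of them in TMREhi and 44.1% in TMRElo. With the 5 deepest barcodes of each library left out, the family ratio was 0.355 and that of Gimap3 0.133. With barcodes thinned to 1000 UMIs the Gimap3 ratio was 0.342.

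The next comparison set barcodes with a UMI of Rag1, the recombinase that assembles antigen receptor genes in early thymocytes, against those without, within TMREhi. Gimap transcripts were lower in Rag1-positive barcodes for all 8 members. The family stood at 329 CPM in 222 Rag1-positive barcodes (214 UMIs) and 813 in 803 Rag1-negative barcodes (2914 UMIs), a ratio of 0.405 (0.351 to 0.465). At least 2-fold lower were 6 of the 8 members, against 5.93% of 8213 genes, and 0 were higher, against 10%. The median log2 ratio was −1.19 for the members and 0.21 for all genes.

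Over all TMREhi barcodes Gimap5 and Gimap4 had the lowest ratios of the 8, while in low-ribosomal ones Gimap3, at 0.120, lay as low as Gimap4, at 0.125. Gimap5 had 13.8 CPM in Rag1-positive barcodes (9 UMIs) and 102 in Rag1-negative ones (364 UMIs), a ratio of 0.136 (0.0618 to 0.262). Gimap4 had 35.4 in Rag1-positive and 180 in Rag1-negative barcodes, at 0.197 (0.124 to 0.298). Gimap7 had 9.23 in Rag1-positive barcodes, from 6 UMIs, and 41.6 in Rag1-negative ones, a ratio of 0.222 (0.0802 to 0.495). For these 3 genes even the upper bound lay below 0.5, and asking for at least 2 Rag1 UMIs gave ratios of 0.0790, 0.0588 and 0.127 in the same order.

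Gimap3 stood at 29.2 CPM in Rag1-positive barcodes (19 UMIs) and 67.5 in Rag1-negative ones, with a ratio of 0.433 (0.256 to 0.691). Of its 19 UMIs, 52.6% came from 1 barcode, and with at least 2 Rag1 UMIs asked for it had 0 UMIs in Rag1-positive barcodes, with an upper bound on the ratio of 0.139. Gimap8 was at 26.1 in Rag1-positive and 58.6 in Rag1-negative barcodes, and Gimap6 at 75.3 in Rag1-positive and 161 in Rag1-negative barcodes. Gimap1, with 53.8 in Rag1-positive and 85.6 in Rag1-negative barcodes, was less than 2-fold lower at 0.629 (0.430 to 0.893). So was Gimap9, with 86.1 in Rag1-positive and 117 in Rag1-negative barcodes, at 0.737 (0.547 to 0.976).

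**Figure D2:**
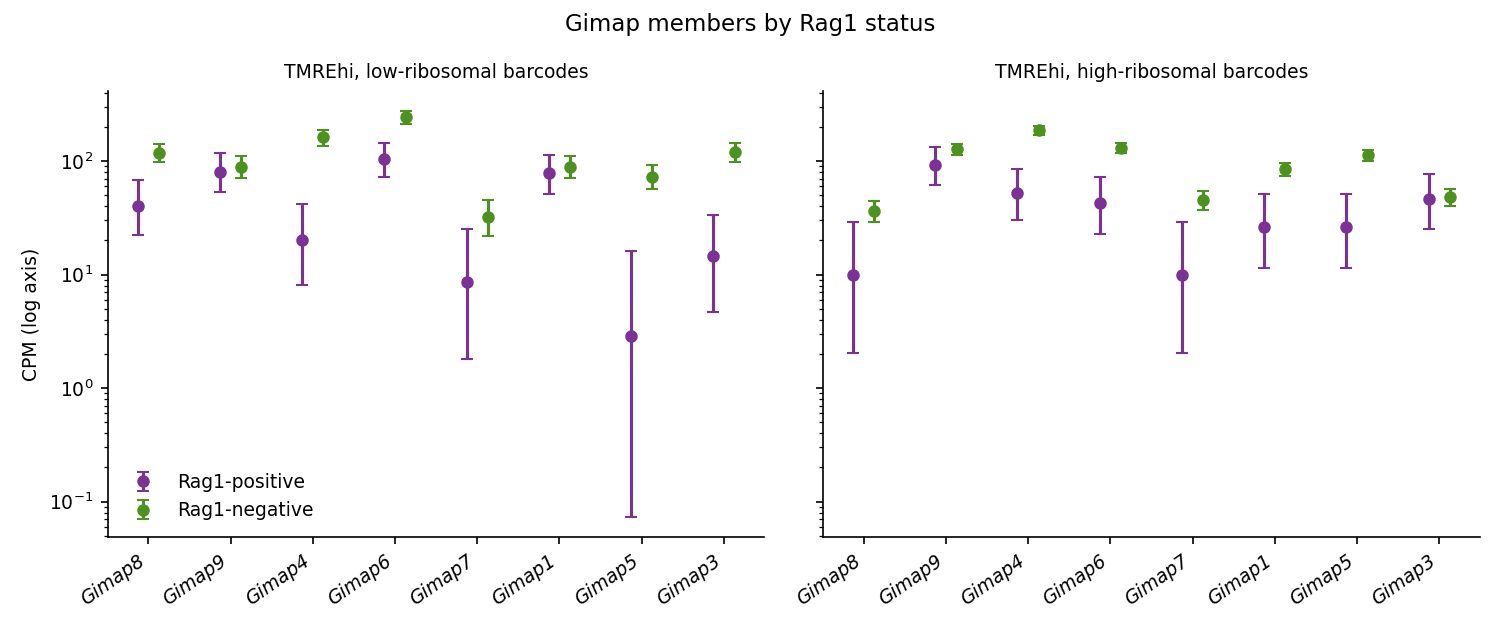
Level of each member in CPM (log axis) in Rag1-positive and Rag1-negative TMREhi barcodes, separately for low-ribosomal and high-ribosomal barcodes; bars are 95% Poisson intervals on the counts. Among low-ribosomal barcodes Gimap5 (2.89 against 72.4) and Gimap3 (14.4 against 120) lie furthest apart, and Gimap9 (80.9 against 89.0) and Gimap1 (78.0 against 89.0) overlap.

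Rag1-positive barcodes were mostly low-ribosomal, 197 against 25 high-ribosomal. Among low-ribosomal barcodes the family stood at 350 CPM in Rag1-positive and 927 in Rag1-negative ones, a ratio of 0.377 (0.309 to 0.456), with 6 members at least 2-fold lower, against 11.1% of genes, and 0 higher, against 6.98%. Gimap5 had 1 UMI in Rag1-positive barcodes and 70 in Rag1-negative ones, a ratio of 0.0399 (0.000996 to 0.230). Gimap3 had 5 UMIs in Rag1-positive and 116 in Rag1-negative barcodes, at 0.120 (0.0384 to 0.289). Gimap9 and Gimap1 had intervals that included 1, at ratios of 0.909 (0.571 to 1.41) and 0.877 (0.547 to 1.36). Among high-ribosomal barcodes the family ratio was 0.397 (0.319 to 0.488), with 6 members at least 2-fold lower, against 9.65% of genes, and 0 higher, against 5.83%. Gimap3 was there at 46.0 CPM in Rag1-positive and 48.1 in Rag1-negative barcodes, 71.4% of its 14 UMIs in Rag1-positive barcodes coming from 1 barcode.

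Thinned to 1000 UMIs, a UMI of any member was found in 21.9% of 146 Rag1-positive barcodes (15.5 to 29.5) and 52.9% of 720 Rag1-negative ones (49.2 to 56.6). Unthinned, the shares were 45.0% of 222 Rag1-positive and 75.8% of 803 Rag1-negative barcodes, at median depths of 1640 and 2138 UMIs. Markers of αβ lineage thymocytes, 7 genes that include Rag1 itself, summed to 2299 CPM in Rag1-positive barcodes and 210 in Rag1-negative ones. All 7 were detected in Rag1-positive barcodes and 6 of 7 in Rag1-negative ones, where Rag1 is at 0 by the definition of the class. The 7 γδ T cell markers summed to 2100 CPM in Rag1-positive and 3800 in Rag1-negative barcodes. The part of these markers in the Gimap result was not tested.

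The γ chain of the receptor is assembled from a V segment, and in the mouse fetal thymus cells using different segments arise in successive waves with different destinations. Cells using Tcrg-V5 populate the skin epidermis, and cells using Tcrg-V6 settle in mucosal tissues and produce interleukin 17. Each TMREhi barcode with γ V UMIs was assigned to the segment with the most. Barcodes led by Tcrg-V6 numbered 97, by Tcrg-V4 86, by Tcrg-V5 39, and by the Vγ1 family (Tcrg-V1, Trgv2 and Tcrg-V3) 381. Another 9 were led by Tcrg-V7, 86 were tied between segments, and 165 with Rag1 and 162 without had no V UMI. The tied barcodes had 1077 Gimap CPM (950 to 1217) and entered none of the comparisons between segments.

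Of these 4 classes, Gimap transcripts were most abundant in Tcrg-V5-led barcodes. The family stood at 2337 CPM in Tcrg-V5-led barcodes (246 UMIs) and 701 in Vγ1-family-led ones (1853 UMIs), a ratio of 3.33 (2.91 to 3.81). At least 2-fold higher were 6 of the 8 members, against 23.3% of 8026 genes, and 0 were at least 2-fold lower, against 12.9%. The median log2 ratio was 1.67 for the members and 0.17 for all genes.

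Gimap3 had 418 CPM in Tcrg-V5-led barcodes and 43.5 in Vγ1-family-led ones, a ratio of 9.61 (6.63 to 13.7). Its UMIs came from 22 of 39 Tcrg-V5-led barcodes (56.4%) and 57 of 381 Vγ1-family-led barcodes (15.0%). Gimap7, a GTPase known in humans to stimulate the related GIMAP2, had 304 in Tcrg-V5-led and 29.9 in Vγ1-family-led barcodes, a ratio of 10.2 (6.52 to 15.5). Those Gimap7 UMIs came from 9 of the 39 barcodes, 25% of the 32 from a lone barcode, so its level there rests on fewer cells than that of Gimap3.

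Gimap8 was at 171 CPM in Tcrg-V5-led and 39.0 in Vγ1-family-led barcodes, 4.39 (2.50 to 7.28). Gimap4 stood at 608 in Tcrg-V5-led and 153 in Vγ1-family-led barcodes, 3.97 (3.0 to 5.17). Gimap5, at 247 and 96.8 in the same order, and Gimap6, at 351 and 138, were both 2.55-fold higher, but in high-ribosomal barcodes alone Gimap6 was at 1.39 (0.659 to 2.60). Gimap9 and Gimap1 had intervals that included 1. Gimap9 had 142 CPM in Tcrg-V5-led and 120 in Vγ1-family-led barcodes, 1.18 (0.655 to 1.98), and Gimap1 had 95.0 and 80.2 in the same order, also 1.18 (0.560 to 2.22).

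**Figure D3:**
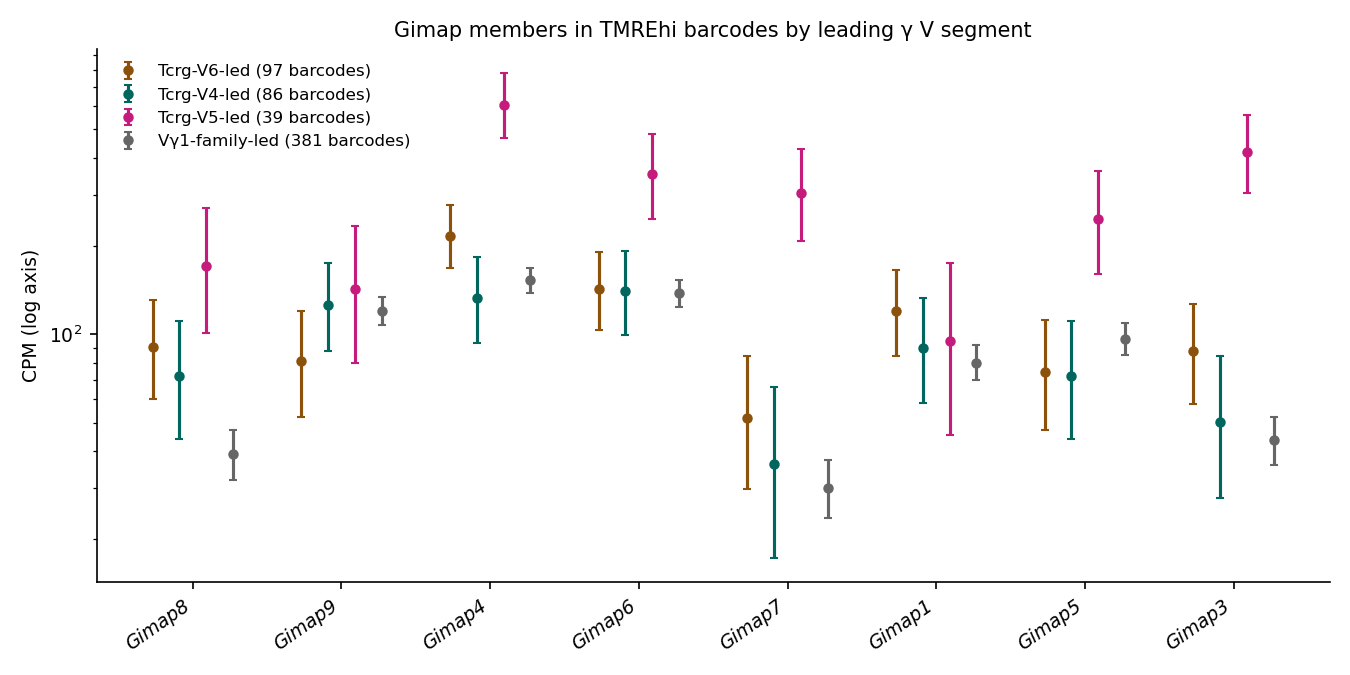
Level of each member in CPM (log axis) in TMREhi barcodes led by Tcrg-V6, Tcrg-V4, Tcrg-V5 and the Vγ1 family; bars are 95% Poisson intervals on the counts. Tcrg-V5-led barcodes (pink) lie highest for 6 members, Gimap3 at 418 and Gimap7 at 304, and overlap the other classes for Gimap9 and Gimap1.

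Within low-ribosomal barcodes the family stood at 2635 CPM in 31 Tcrg-V5-led and 787 in 191 Vγ1-family-led barcodes, a ratio of 3.35 (2.69 to 4.14), with 6 members at least 2-fold higher, against 23.2% of genes, and 1 lower, against 22.6%. Gimap3 was at 664 in Tcrg-V5-led and 68.0 in Vγ1-family-led barcodes. The 1 lower was Gimap9, which had 2 UMIs in the Tcrg-V5-led barcodes, and its ratio of 0.493 had an interval of 0.0575 to 1.91. The high-ribosomal class held only 8 Tcrg-V5-led barcodes, 5 of which had 83.0% of the UMIs. There the family was at 2112 in Tcrg-V5-led and 685 in Vγ1-family-led barcodes, with 5 members at least 2-fold higher, against 18% of genes, and 0 lower, against 18.5%.

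Over all 39 Tcrg-V5-led barcodes the 5 deepest held 47.4% of the UMIs. With the 5 deepest of each class left out, an alternative chosen after seeing the data, the family ratio was 3.31 (2.75 to 3.95) and that of Gimap3 12.2, while Gimap7 was at 7.45 (3.70 when thinned), Gimap5 at 1.78 (0.844 to 3.33) and Gimap9 at 0.457 (0.0938 to 1.35). Thinned to 1000 UMIs, a UMI of any member was found in 80.0% of 35 Tcrg-V5-led barcodes (63.1 to 91.6) and 49.6% of 367 Vγ1-family-led ones (44.4 to 54.8). Unthinned, the shares were 87.2% of 39 Tcrg-V5-led barcodes and 82.7% of 381 Vγ1-family-led ones, at median depths of 1398 and 3655 UMIs. TMRElo held 1 Tcrg-V5-led barcode, so no level for this segment could be set beside it.

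Tcrg-V6-led barcodes differed less. Their family level was 866 CPM, against 701 in Vγ1-family-led barcodes, a ratio of 1.24 (1.08 to 1.41), and 2 members were at least 2-fold higher, against 12.9% of genes, and 0 lower, against 11.8%. These were Gimap8, with 90.8 in Tcrg-V6-led and 39.0 in Vγ1-family-led barcodes, and Gimap3, with 87.6 in Tcrg-V6-led and 43.5 in Vγ1-family-led barcodes. Of the 27 Gimap3 UMIs in Tcrg-V6-led barcodes, 37.0% came from 1 barcode. Among barcodes with at least 2 UMIs of 1 V class and none of another, 30 led by Tcrg-V6 and 120 by the Vγ1 family, the family ratio was 0.936 and that of Gimap3 0.746. In low-ribosomal barcodes Tcrg-V6 gave a ratio of 1.17 (0.904 to 1.50), with 0 members at least 2-fold higher, against 14% of genes, and 1 lower, against 17.6%, which was Gimap5 with 2 UMIs in Tcrg-V6-led and 26 in Vγ1-family-led barcodes. In high-ribosomal barcodes it was 1.23 (1.05 to 1.44), with 1 member higher, Gimap3 at 2.20 (1.27 to 3.65), against 13.6% of genes, and 0 lower, against 15.7%.

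Tcrg-V4-led barcodes had 720 Gimap CPM, against 701 in Vγ1-family-led ones, a ratio of 1.03 (0.884 to 1.19). There 0 members were at least 2-fold higher or lower, against 17.7% and 4.59% of genes, and Gimap8 was furthest from 1 at 1.85 (1.08 to 3.01). The ratios were 0.939 (0.748 to 1.17) in low-ribosomal and 1.02 (0.817 to 1.26) in high-ribosomal barcodes. In both, 0 members were at least 2-fold higher, against 8.33% and 10% of genes, or lower, against 11.1% and 13.1%.

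**Figure D4:**
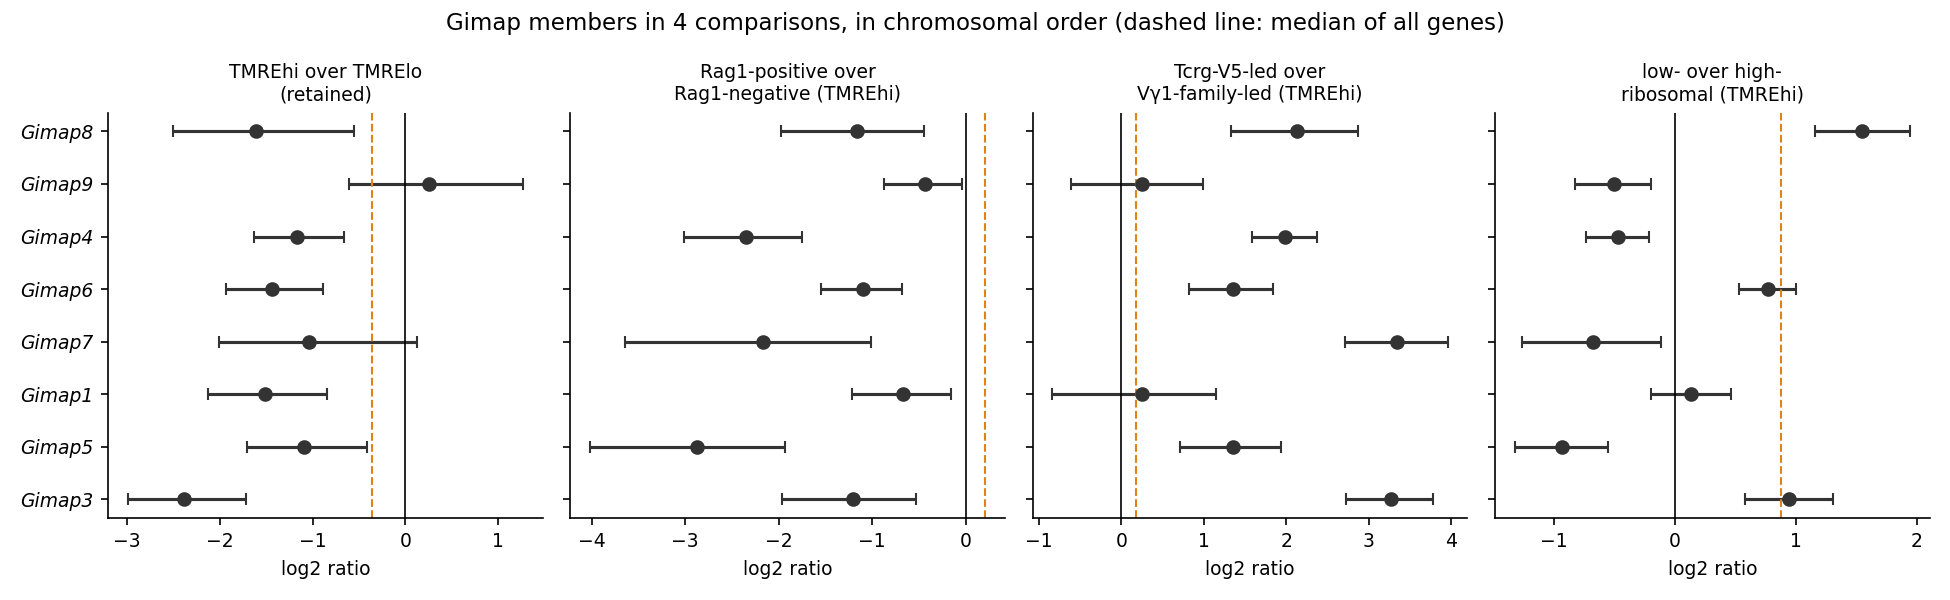
Log2 ratio of each member, in chromosomal order from top to bottom, in 4 comparisons: TMREhi over TMRElo, Rag1-positive over Rag1-negative, Tcrg-V5-led over Vγ1-family-led, and low-ribosomal over high-ribosomal; bars are 95% intervals on counting error, the solid line marks no difference and the dashed line the median of all genes. Gimap9 is the member closest to 0 in the second panel (0.737-fold) and shares that place with Gimap1 in the third (both 1.18-fold), and in the fourth the members fall on both sides of the solid line.

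Low-ribosomal and high-ribosomal barcodes had similar summed Gimap CPM in TMREhi but a different make-up. The family stood at 775 CPM in low-ribosomal (1017 UMIs) and 722 in high-ribosomal barcodes (2111 UMIs), a ratio of 1.07 (0.995 to 1.16). Without ribosomal protein and mitochondrial UMIs in the denominator, the levels were 1020 and 1116 CPM in the same order. Ribosomal protein UMIs take less of the total in low-ribosomal barcodes by definition, and the median log2 ratio over all 8447 genes was 0.88. Against that shift, Gimap8 and Gimap3 lay above the median and the other 6 members below it. Only Gimap8 was at least 2-fold higher, 1 member of 8, against 46.5% of genes, and 0 were at least 2-fold lower, against 11%. Among Rag1-negative barcodes alone the family ratio was 1.20 (1.11 to 1.30), with 2 members higher, Gimap8 and Gimap3, against 46.3% of genes, and 0 lower, against 11.2%.

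Gimap8 had 98.3 CPM in low-ribosomal and 33.5 in high-ribosomal barcodes, a ratio of 2.93 (2.24 to 3.85). Gimap3 had 92.2 in low-ribosomal and 47.9 in high-ribosomal barcodes, 1.92 (1.50 to 2.47), and Gimap6 had 207 and 122 in the same order, 1.70 (1.45 to 2.00). At the other end Gimap5 had 54.1 in low-ribosomal and 103 in high-ribosomal barcodes, 0.524 (0.398 to 0.680). Gimap7, Gimap9 and Gimap4 had ratios of 0.626 (0.415 to 0.922), 0.703 (0.565 to 0.870) and 0.720 (0.60 to 0.861). Gimap1 was at 1.10 (0.869 to 1.38). With at most 10% mitochondrial UMIs, which left 47 low-ribosomal and 270 high-ribosomal barcodes, Gimap9 was at 1.07 (0.428 to 2.23) and Gimap4 at 0.111 (0.00281 to 0.622). Low-ribosomal barcodes held 31.0% of all TMREhi UMIs but 56.8% of those of Gimap8, 46.4% of those of Gimap3 and 19.0% of those of Gimap5.

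In TMRElo the family was at 2037 CPM in low-ribosomal and 1576 in high-ribosomal barcodes, 1.29 (1.05 to 1.60). Gimap8, Gimap3 and Gimap6, the 3 members with the highest ratios in TMREhi, were there at least 2-fold higher in low-ribosomal barcodes, with ratios of 3.96 (1.66 to 11.5), 2.54 (1.50 to 4.51) and 2.28 (1.38 to 3.95). Those 3 members compare with 42.9% of 8319 genes in TMRElo, where the median log2 ratio was 0.70. The other 5 had ratios of 0.398 to 0.781, with intervals that included 1. One of them, Gimap9, was at least 2-fold lower, against 20.1% of genes. Low-ribosomal barcodes also had more mitochondrial UMIs, with medians of 16.9% in low-ribosomal and 3.55% in high-ribosomal TMREhi barcodes, and 14.4% and 3.92% in TMRElo. In the 47 low-ribosomal TMREhi barcodes with at most 10% mitochondrial UMIs the ratios were 3.48 (1.25 to 7.87) for Gimap8, 2.48 (0.894 to 5.54) for Gimap3 and 1.57 (0.745 to 2.92) for Gimap6.

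Combining library, leading V segment, Rag1 and ribosomal class gave 14 sets with at least 10 barcodes and 20000 UMIs, with tied barcodes left out. The summed Gimap level was highest in TMREhi low-ribosomal barcodes led by Tcrg-V5, at 2635 CPM. The 4 TMRElo sets followed, at 2407 for Tcrg-V4-led, 2066 for Vγ1-family-led and 1676 for low-ribosomal barcodes with neither V segment nor Rag1, and 1478 for Vγ1-family-led high-ribosomal barcodes. The level of 2407 rests on 53 UMIs. Its range of counting error, 1803 to 3148, includes 2635, so which of these sets is highest is not settled. The remaining 9 sets, all from TMREhi, lay below every TMRElo set. The Tcrg-V6-led sets had 921 (low-ribosomal) and 845 (high-ribosomal), and 6 sets lay close together between 642 and 787, with overlapping ranges of counting error. Rag1-positive low-ribosomal barcodes without a V segment were lowest, at 302. In that last set Gimap3 had 0 UMIs and Gimap9 84.6 CPM. The tied TMREhi barcodes, outside the 14 sets, were at 1228 CPM (1033 to 1449) in 68 low-ribosomal and 941 (780 to 1127) in 18 high-ribosomal barcodes, and both ranges overlap those of the Tcrg-V6-led sets of the same class.

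**Figure D5:**
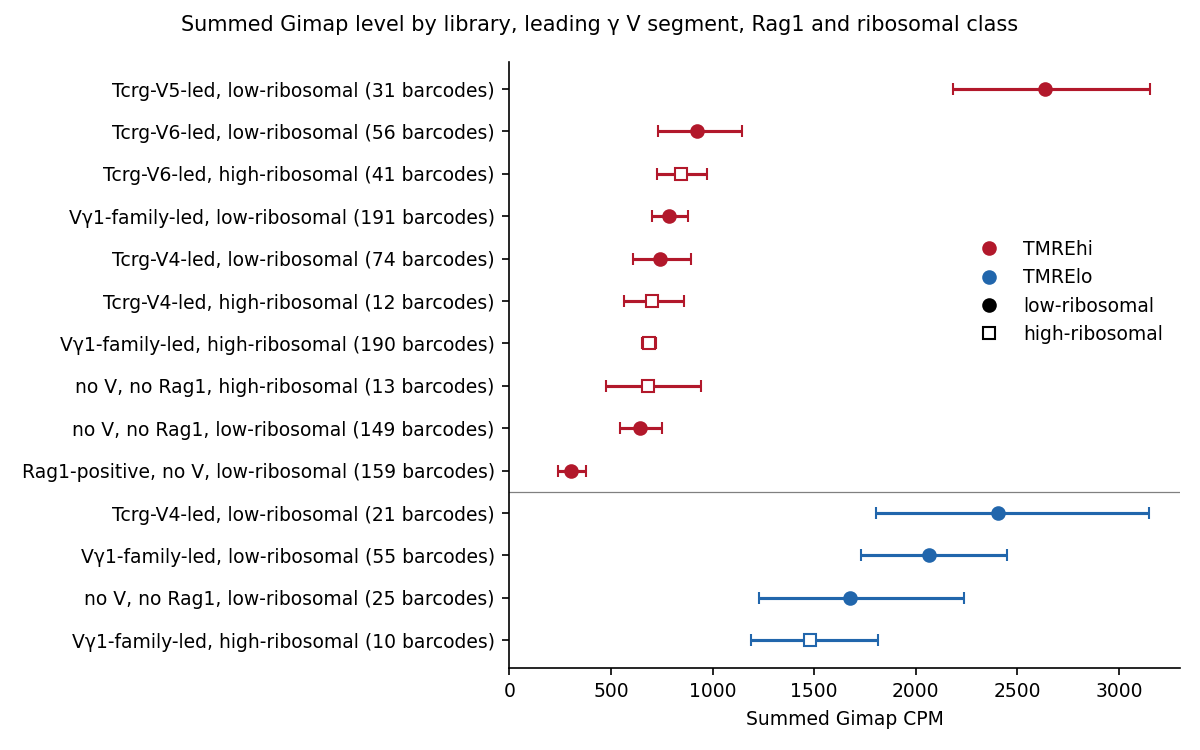
Summed Gimap level in CPM for the 14 barcode sets, TMREhi (red) above TMRElo (blue), with filled circles for low-ribosomal and open squares for high-ribosomal barcodes; bars are 95% Poisson intervals on the counts. The point of the Tcrg-V5-led TMREhi set (2635) lies above those of the 4 TMRElo sets (1478 to 2407), but the bar of the Tcrg-V4-led TMRElo set includes 2635. The Rag1-positive set without a V segment lies lowest (302).

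Across these 14 sets, which share 2 libraries and differ in depth, each member was set against the sum of the other 7 on a log2 scale as a description. Gimap3 followed the rest most closely, with a Pearson correlation of 0.908, then Gimap6 with 0.823. Gimap5, Gimap8, Gimap4, Gimap1 and Gimap7 had values of 0.664, 0.614, 0.590, 0.580 and 0.468. Gimap9 ran the other way, at −0.562, and ranged from 15.5 to 146 CPM. Its levels in sets with high family sums rest on few UMIs. In TMRElo low-ribosomal barcodes it had 1 UMI in the Vγ1-family-led set and 2 in the Tcrg-V4-led set. The direction of its correlation is therefore not settled at this depth. Gimap3 ranged from 0 to 765. Of 3876 other genes measured well enough, B4galnt1, a ganglioside-making enzyme, was most like the family sum (0.917). It was followed by the kinase gene Stk17b (0.898), Ms4a4b (0.897), the interleukin 2 receptor β chain gene Il2rb (0.896), the transcription factor gene Runx3 (0.893) and Tapbp (0.887), a chaperone for MHC class I loading. Il2rb had 53.3 CPM in TMREhi and 314 in TMRElo retained barcodes, 6.15 in Rag1-positive and 83.7 in Rag1-negative TMREhi barcodes, and 237 in Tcrg-V5-led and 73.4 in Vγ1-family-led ones. B4galnt1 had 70.2 and 257, 43.1 and 90.9, and 123 and 73.8 in the same order. Its ratio in the last comparison, 1.67, had an interval that included 1 (0.875 to 2.93). These genes were ranked over the same libraries, so their levels describe the ranking and do not test it.

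Of 9 genes whose products are reported to bind GIMAP proteins or to act with them, 0 were at least 2-fold higher, against 10.6% of all genes, and 2 at least 2-fold lower, against 30.5%, in retained TMREhi barcodes, with a median log2 ratio of −0.45, against −0.36 for all genes. The 2 were Gsk3b, a kinase, with 73.6 CPM in TMREhi and 152 in TMRElo, 0.484 (0.291 to 0.862), and Bcl2l11, which encodes the death protein Bim, with 15.1 and 57.1 in the same order, 0.265 (0.113 to 0.762). The survival gene Bcl2 had 138 in TMREhi and 247 in TMRElo, 0.556 (0.374 to 0.862). In Rag1-positive TMREhi barcodes 1 of the 9 was at least 2-fold higher, against 10% of genes, and 1 lower, against 5.93%. Bcl2 was there at 56.9 CPM, against 215 in Rag1-negative ones, and Bcl2l1, encoding the survival protein Bcl-xL, at 83.0 against 17.9. In Tcrg-V5-led barcodes 3 of the 9 were at least 2-fold higher, against 23.3% of genes, and 0 lower, against 12.9%, with Bcl2 at 503, against 168 in Vγ1-family-led ones, Bcl2l11 at 133 against 24.2, and Bak1, a death gene, at 66.5 against 23.5. Bcl2l11, Bcl2l1 and Bak1 lie below the level set for naming genes of a list, a mean of at least 50 CPM over the 2 libraries, and were chosen after their values were seen.

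Of 18 genes of late thymocyte maturation, 17 reached 10 CPM in the retained barcodes, and 11 of these were at least 2-fold lower in TMREhi, against 30.5% of all genes, and 0 higher, against 10.6%, with a median log2 ratio of −1.34. Ms4a4b, a membrane protein of mature T cells, had 218 CPM in TMREhi and 1075 in TMRElo, 0.203 (0.166 to 0.250), and Klf2, a transcription factor for thymic exit, had 115 in TMREhi and 285 in TMRElo, 0.404 (0.278 to 0.608). In Rag1-positive TMREhi barcodes 12 of 17 were at least 2-fold lower, against 5.93% of genes, and 0 higher, against 10%. In Tcrg-V5-led barcodes the list was divided, with 7 of 17 at least 2-fold higher, against 23.3% of genes, and 4 lower, against 12.9%. There Ms4a4b was at 712 CPM, against 302 in Vγ1-family-led barcodes, and the integrin gene Itgb7 at 370 against 112, but Klf2 was at 9.50 against 124.

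Of 10 immaturity genes, 9 reached that level in retained barcodes, with 5 at least 2-fold higher in TMREhi, against 10.6% of all genes, and 2 lower, against 30.5%. Of the 5, Cd24a, Rag1 and Ptcra had 0 UMIs in TMRElo, and 3 UMIs there would give ratios of 1.54 for Rag1 and 0.952 for Ptcra, both short of 2-fold. Rag1 and Ptcra are named for these counts, after their values were seen. Cd24a encodes CD24 itself. It had 438 UMIs in TMREhi, against 0 in TMRElo, and was at least 5.28-fold higher in TMREhi against 3 UMIs in TMRElo. Dntt, the enzyme that adds bases at receptor joints, had 130 CPM in TMREhi and 9.52 in TMRElo, and Sox4 had 163 in TMREhi and 76.1 in TMRElo. The 2 lower genes were Themis, at 102 in TMREhi and 419 in TMRElo, and Satb1, at 196 in TMREhi and 504 in TMRElo. In Rag1-positive TMREhi barcodes 7 of the 10, a list that holds Rag1 itself, were at least 2-fold higher, against 10% of genes, and 0 lower, against 5.93%. In Tcrg-V5-led barcodes 6 of 9 at or above 10 CPM were at least 2-fold lower, against 12.9% of genes, and 0 higher, against 23.3%. Ptcra, 1 of the 6, had 0 UMIs there, and 3 UMIs would give a ratio of 1.02. Among the others was Cd24a at 38.0 CPM, against 151 in Vγ1-family-led barcodes.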

How the data were processed

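Single-cell RNA libraries were made with a kit that reads transcript 5′ ends. The authors deposited raw UMI counts per gene and barcode, produced with Cell Ranger 3.0.2 per the file headers and with the mm10 build per the submitters' processing notes, which give the Cell Ranger version as 3.0. The annotation release is not given in the sources used here, and 0 columns of the tables were left unused.

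From these counts, barcodes were classed by library, mitochondrial share, ribosomal protein share (95 genes, divided at 15%), Rag1 UMIs and leading γ V segment. UMIs were summed per class. Ratios have exact conditional (Clopper-Pearson) 95% intervals, levels Poisson intervals and shares exact binomial intervals. These cover counting error only. A floor is 3 counts. Genes were called at a 2-fold difference with a mean of at least 10 CPM. Thinning to 1000 UMIs used a fixed random seed and left out 159 TMREhi and 49 TMRElo barcodes. Scrublet, run on barcodes with at least 500 genes, marked 6 of 1025 TMREhi and 2 of 133 TMRElo barcodes as doublets. These were kept except in an alternative. Genes outside the family could be named from a list at a mean of at least 50 CPM over the 2 libraries, up to 6 per list, plus the 6 genes most like the family by Pearson correlation of log2(CPM + 10). The members, gene lists and tests were chosen with earlier results of these data known. The ratio calculation was tested on simulated data. Alternatives changed the filters, denominator, weighting, depth and class limits. Promoter sequences came from RefSeq (GRCm38.p6) and gene positions from GENCODE vM21, which held 30934 of the 31053 gene identifiers. Sums and intervals used numpy 2.4.6 and scipy 1.17.1 under Python 3.11.15, tables pandas 2.3.3, doublet calls scanpy 1.11.5 and figures matplotlib 3.10.9. Values of some single genes of the comparison lists are not reported here.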

Additional observations from a re-analysis of the deposited data

Results flagged for a closer look

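The read-through gene Gm28053, which is outside the 8 members, had 25 UMIs in all deposited TMREhi barcodes. In retained barcodes it had 11 UMIs in TMREhi and 0 in TMRElo.

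Barcodes with under 500 genes entered only the alternative of the library ratio that took all deposited barcodes. They too held Gimap UMIs, 89 UMIs in 177 TMREhi barcodes and 47 UMIs in 63 TMRElo barcodes. This came to 774 CPM in TMREhi and 1829 in TMRElo.

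Gimap1 had a low-ribosomal over high-ribosomal ratio of 1.0989 in TMREhi and 0.59224 in TMRElo, on opposite sides of 1. The difference between the libraries was not tested.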

How the results depend on the processing

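Over the alternatives run, the summed family ratio lay between 0.355 and 0.473 for TMREhi over TMRElo, 0.295 and 0.452 for Rag1-positive over Rag1-negative, 2.83 and 3.66 for Tcrg-V5-led over Vγ1-family-led, 0.923 and 1.12 for Tcrg-V4-led and 0.936 and 1.31 for Tcrg-V6-led over Vγ1-family-led, and 0.857 and 1.20 for low-ribosomal over high-ribosomal barcodes. Of the alternative family values, 50 stayed within counting error of the reported one, 10 moved beyond it and 1 turned a ratio whose interval left out 1. For the single members these counts were 434, 50 and 3. Alternatives on the other side of 1 from the reported ratio numbered 8 for the family and 48 for the members, and all but those 1 and 3 belong to ratios whose interval included 1, such as low-ribosomal over high-ribosomal and Tcrg-V4. The 10 that moved were 0.355 for the libraries without the 5 deepest barcodes of each. For Rag1 they were 0.299 thinned to 1000 UMIs and 0.295 with at least 2 Rag1 UMIs. For Tcrg-V5 the thinned value was 2.83. Tcrg-V6 gave 1.04 with each barcode weighted equally and 1.06 thinned. Low-ribosomal over high-ribosomal gave 0.857 with at least 1000 genes, 0.914 without ribosomal protein and mitochondrial UMIs in the denominator, 0.976 with each barcode weighted equally and 1.20 in Rag1-negative barcodes. The family ratio that turned was Tcrg-V6 at 0.936 with at least 2 UMIs of 1 V class and none of another, where Gimap4 was at 0.899 and Gimap3 at 0.746. Gimap9 in low-ribosomal over high-ribosomal barcodes was at 1.07 with at most 10% mitochondrial UMIs. The cause was not tested. Gimap7 had 0 UMIs in the 27 thinned retained TMRElo barcodes and so no thinned ratio between the libraries. No paired analysis was possible because each fraction is 1 library. Leaving out the 5 deepest barcodes of each class within TMREhi was chosen after seeing the data. The small depth of TMRElo, where 3 UMIs equal 28.5 CPM, limits every comparison of single members between the libraries.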
